A study of Mus musculus with 10 samples.

Results

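The baseline transcriptome of WT bone marrow derived macrophages (BMDMs) was read from the 5 WT arrays out of the 10 arrays of the series. For every array feature the 5 values were averaged, features with a single gene symbol were kept, and the genes were ordered by their mean level. Male mice, C57BL in the labels and C57BL/6J in the methods, gave the marrow, and the methods call them littermates of Rac2-/- animals. Marrow cells were grown in MCSF at 50 ng/ml for 7 days with 20% FBS at 16% oxygen, and RNA was taken after 8 days of culture with no added stimulus. The labels state that over 80% of the cells were positive for Mac1 and that the RNA had a RIN of 8 to 9. They do not tie each array to a separate animal, so the spread between arrays may be partly technical. Cells that adhere in MCSF make up such a culture as a whole, so every value is a mixture over its cells.

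Macrophages are phagocytes that arise from marrow precursors when the MCSF receptor is engaged. The receptor signals survival and differentiation, and the cells then take up particles through Fc, complement and scavenger receptors and degrade them in acid lysosomes. Resting cells can be pushed to an inflammatory state, called M1, or to a state of repair, called M2, and each state has its own marker genes. Rac2, the small GTPase that the study deals with, acts downstream of the MCSF receptor and of integrins on the actin cytoskeleton and on the oxidase that makes superoxide.

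The array values are on a log2 scale and a value was read for 19935 genes, from 2.21 to 13.30 with a median of 6.54. Olfactory and vomeronasal receptor genes, which macrophages are not known to use, were taken as the floor of the scale. The 1190 receptor genes had a median of 3.91, and the level under which 95% of them lay was 5.69. A gene was called above this floor when its mean exceeded 5.69, as 13199 genes or 66.2% did, and by construction 60 receptor genes did too. The top range was set as the 1994 genes (10%) at 9.98 or higher, the floor held 6736 genes (33.8%) and the middle the other 11205 (56.2%). Features differ in how strongly they hybridize, so the order of different genes is approximate and no ratio between genes is given. The percentile rank of a gene is the share of all genes that lay under it.

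**Figure D1:**
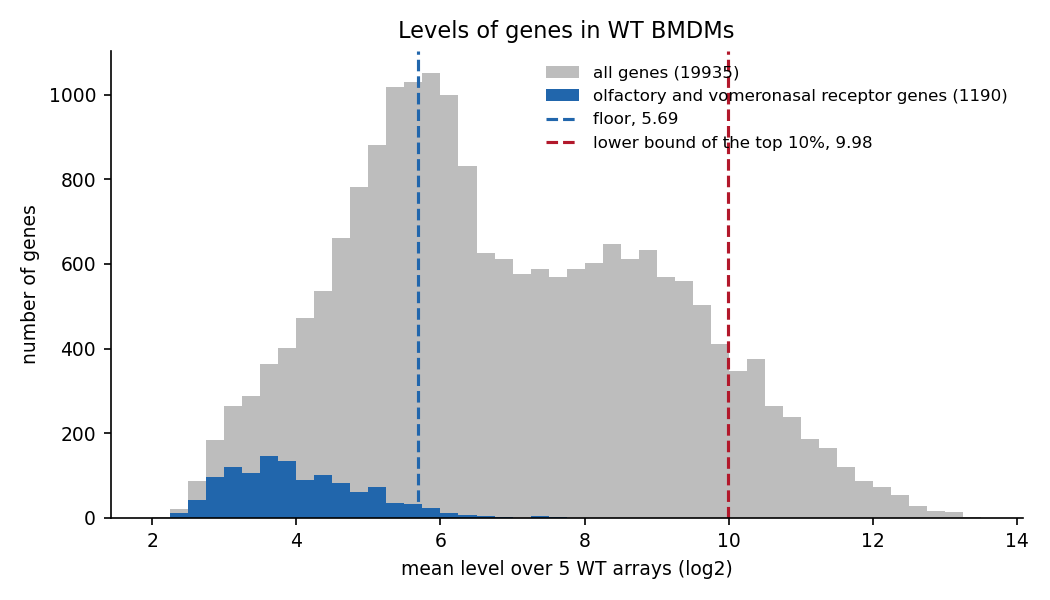
Number of genes (vertical axis) by mean level over the 5 WT arrays (horizontal axis, log2) in grey, with the 1190 olfactory and vomeronasal receptor genes in blue. The receptor genes gather to the left of the blue line at 5.69, and the red line at 9.98 marks the lower bound of the top 10%.

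The 5 arrays gave nearly the same order of genes, with Spearman correlations of 0.979 to 0.998 between pairs. Arrays 1 and 2 nevertheless stood apart from arrays 3 to 5. In pairs that crossed the 2 sets, 899 to 1218 genes lay more than 1 log2 unit apart, against 0 to 74 in pairs within a set. Arrays 3 and 4 were the closest pair, with no gene more than 1 unit apart, and were kept as 2 arrays. The median SD over the 5 arrays was 0.16 for all genes. All of the 30 highest genes were among the 100 highest of every array.

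The genes by which macrophages are recognized lay at the top of the order. Lyz2, the gene of lysozyme, which cuts bacterial walls, read 13.20, 13.27, 12.98, 12.87 and 12.96 in arrays 1 to 5, a mean of 13.05 ± 0.17 (SD, n = 5) and rank 9 of all genes. Csf1r, the MCSF receptor, read 12.78, 12.72, 12.62, 12.60 and 12.57 in the same order. All 5 values of both genes lay far above the floor and in the top range.

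Cd68, a lysosomal membrane glycoprotein, read 12.65, 12.73, 12.63, 12.62 and 12.69. Adgre1, which encodes the F4/80 antigen, read 12.61, 12.67, 12.50, 12.48 and 12.62. Itgam, the chain of the Mac1 integrin for which the cultures had been stained, was lower at 11.61, 11.64, 11.41, 11.41 and 11.50 but still had a percentile rank of 98.0. All 5 markers lay in the top range in all 5 arrays, as the label of the samples says of their cell type.

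A wider list of 23 macrophage surface and lysosomal genes had 18 members in the top range, 2 in the middle and 3 at the floor, against 10% of all genes in the top range and 33.8% at the floor. Its median was 11.60, against 6.54 for all genes. Laptm5, a lysosomal membrane protein of blood cells, and Fcer1g, the signaling chain shared by Fc receptors, followed Lyz2 with 12.84 and 12.81. The 3 members at the floor were Cd163 at 5.13, Timd4 at 4.79 and Vsig4 at 4.17, which encode a hemoglobin scavenger receptor, a phosphatidylserine receptor and a complement receptor of resident tissue macrophages. Cd163 read 5.35, 5.43, 4.95, 4.96 and 4.96, so no array brought it above 5.69.

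Of 23 transcription factors that specify or maintain macrophages, 8 lay in the top range, 14 in the middle and 1 at the floor. Spi1, which encodes PU.1, the master factor of the lineage, read 11.07, 11.23, 11.77, 11.75 and 11.88. Maf, a factor of differentiated macrophages, read 10.29 and 10.31 in arrays 1 and 2 but 12.04, 12.03 and 11.99 in arrays 3 to 5. Zeb2, a transcriptional repressor, averaged 11.22. Both sets of arrays kept Spi1 and Maf in the top range, although the sets did not overlap for either gene. Gata6, the factor of peritoneal macrophages, lay just under the floor at 5.65 and crossed it when array 1 was left out, after which the list had 0 members at the floor.

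By contrast, none of 20 factors of other blood lineages reached the top range, against 10% of all genes. Another 14 were in the middle and 6 at the floor, against 56.2% and 33.8% of all genes. They were thus not at the floor more often than genes at large. Their median of 6.11 was below that of all genes. The highest were Cebpe at 7.68, a granulocyte factor, Tal1 at 7.33, a factor of stem and red cells, and Gfi1b at 6.89, which acts in red cells and megakaryocytes. Eomes at 4.98 and Mecom at 4.80, factors of cytotoxic lymphocytes and of stem cells, were the lowest. With the floor raised to the level under which 99% of receptor genes lay, 17 of the 20 factors were at the floor. Of all 19935 genes, 10233 lay above this higher floor.

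The pathway from the MCSF receptor and α4β1 integrin to Rac was measured for 31 genes, of which 15 were in the top range, 16 in the middle and none at the floor. After Csf1r the highest members were the GTPases Rac2 and Rac1. Rac2 read 11.81, 11.82, 12.26, 12.19 and 12.42 and Rac1 read 11.69, 11.69, 12.07, 12.04 and 12.04, so that arrays 3 to 5 were above arrays 1 and 2 for both. The kinase gene Syk averaged 10.45, Vav1, an exchange factor for Rac, 10.85 and Itga4, the α4 integrin chain, 10.78. These 3 genes were picked after their values were seen, for their place between integrin and Rac. The lowest members were the ligand genes, Vcam1 at 6.25 for the integrin and Il34 at 6.09 for the receptor.

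Cathepsins, the proteases of the lysosome, were listed together with their activator and inhibitors. This list had the highest median of the 31 function lists, 11.98 over 18 genes. Of these genes 13 lay in the top range. Ctsd, an aspartic protease, read 13.29, 13.30, 13.01, 12.99 and 13.02. Ctsb, a cysteine protease, averaged 13.03 ± 0.12 and Ctsz, an exopeptidase, 12.90 ± 0.13 (SD, n = 5). The members that other blood cells use were the lowest, with Ctsg of neutrophil granules at 7.05 and Ctsw of cytotoxic lymphocytes at 5.61, the only member at the floor.

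The other genes of the lysosome lay nearly as high. Among 24 hydrolases, membrane proteins and regulators 20 were in the top range and none at the floor, led by Psap at 13.21, the precursor of the saposins that help degrade sphingolipids, Grn at 13.04, progranulin, and Lamp1 at 12.57, a membrane glycoprotein. Tfeb, a transcription factor for lysosomal genes, was the lowest of them at 8.45. Of 24 subunits of the vacuolar ATPase, the proton pump that acidifies the lysosome, 15 were in the top range, with Atp6ap1 at 12.21, Atp6v1b2 at 12.14 and Tcirg1 at 11.76. The 2 at the floor were Atp6v1c2 at 5.49 and Atp6v1g3 at 5.29, isoforms of kidney and other epithelia.

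Receptors that take up particles were mixed. Of 31 genes, 18 were in the top range, 11 in the middle and 2 at the floor. Fcgr1, the high affinity Fc receptor, read 12.42, 12.65, 12.26, 12.17 and 12.38, and Tyrobp, an adaptor of activating receptors, averaged 12.20. Timd4 and Havcr1, receptors for phosphatidylserine, were the 2 at the floor with 4.79 and 5.05. Among 16 scavenger receptors 7 were in the top range, with Msr1 at 11.30 and Cd36 at 11.30, both receptors for modified lipoproteins, below Cd68. Scara3, Cd163 and Olr1 were at the floor with 5.21, 5.13 and 4.92.

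Toll-like receptors and their partners had a median of 11.06 and 13 of 21 genes in the top range. Ly86 at 12.44 and Cd180 at 12.38, which encode the MD-1 and RP105 pair at the cell surface, and Unc93b1 at 11.97, which carries receptors to the endosome, were the highest. Cd180 read 11.72, 12.11, 12.66, 12.57 and 12.82. Tlr12, a receptor for profilin, was the lowest at 5.86.

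Complement genes were found in every range, with 7 of 22 in the top range, 7 in the middle and 8 at the floor. The shares of all genes were 10%, 56.2% and 33.8%, so the list stood out in the top range and hardly at the floor. The receptor gene C3ar1 read 12.83, 12.82, 12.87, 12.85 and 12.91, and C1qc and C1qb, chains of the C1q recognition molecule, averaged 12.76 and 12.72. Cr2, the complement receptor of B cells, was at the floor with 4.24, as was C9, the pore protein that the liver makes, with 3.68.

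Genes of the phagocyte oxidase and of related oxidases were also found in every range. Cybb, the catalytic subunit, read 12.86, 12.82, 12.80, 12.76 and 12.80. Cyba, its membrane partner, averaged 12.66 ± 0.10 and Ncf1, the p47 organizer, 11.70 ± 0.23 (SD, n = 5). With Ncf4, these were the 4 of 11 genes in the top range. The other 7 were paralogs and organizers used outside phagocytes, and 5 of them were at the floor, Nox3 at 4.80 and Nox4 at 4.39 being the lowest. Of all genes, 10% were in the top range and 33.8% at the floor.

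**Figure D2:**
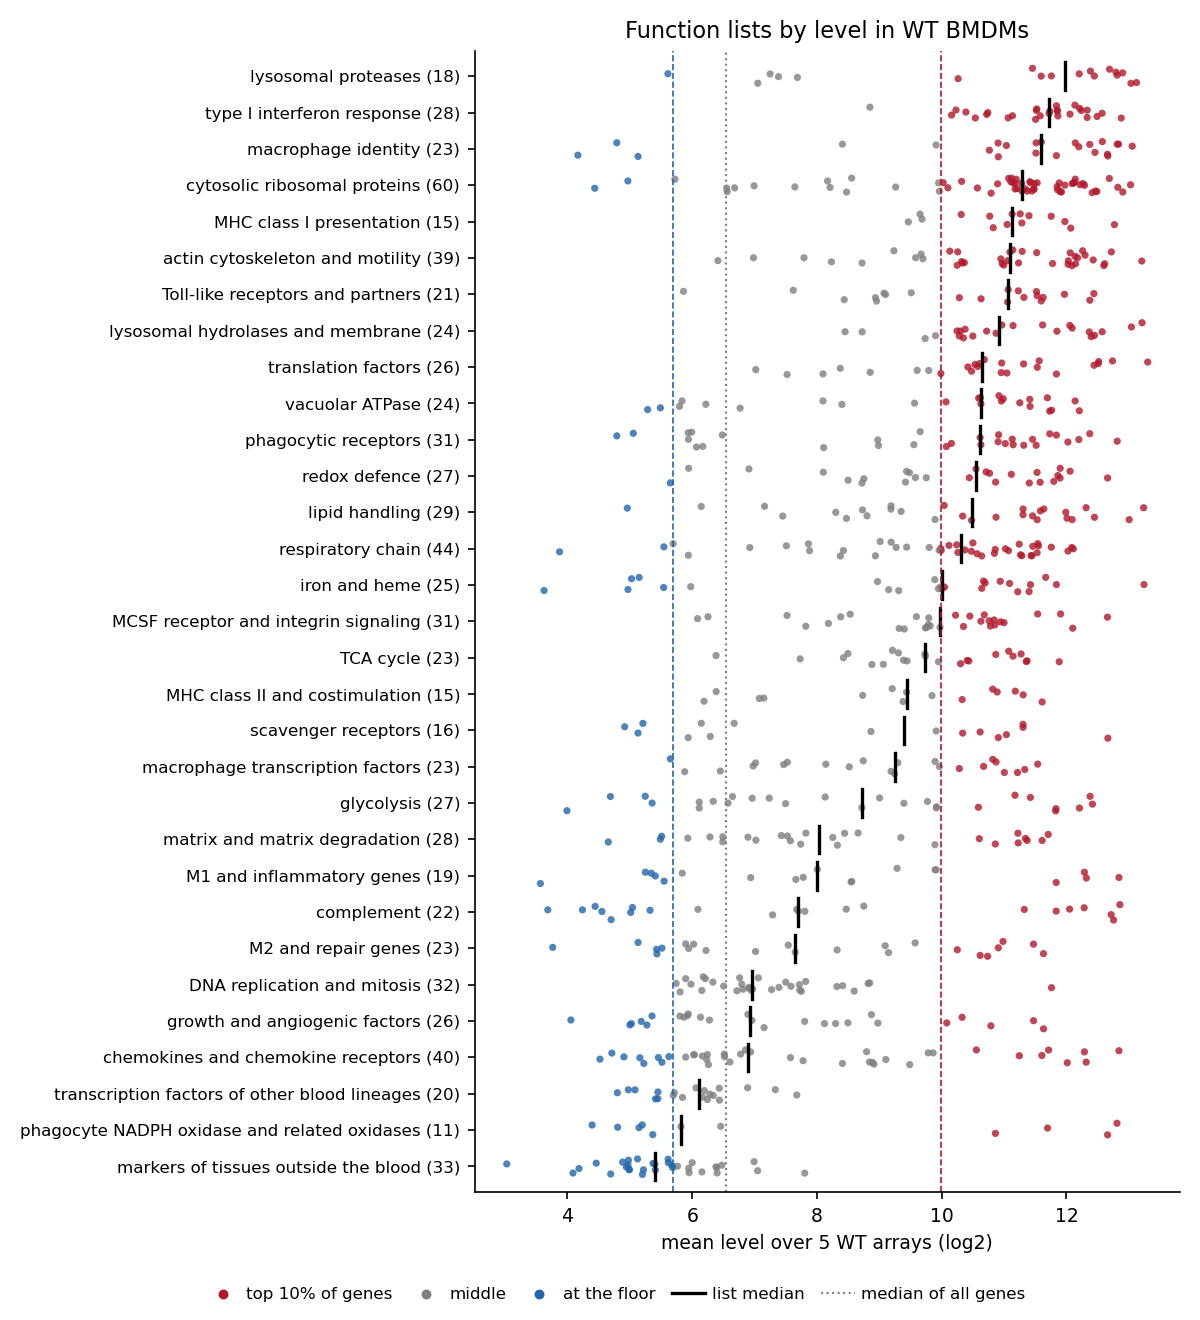
Mean level over the 5 WT arrays (log2, horizontal axis) of the members of 31 function lists, ordered by list median (black bars), with the number of genes read in brackets and points colored by range. The list of lysosomal proteases, which includes their inhibitors, has the highest median, 11.98, and markers of tissues outside the blood the lowest, 5.41.

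Most genes of the cytoskeleton on which Rac acts were high. Of 39 genes, 30 lay in the top range and none at the floor, with a median of 11.09. Actb, cytoplasmic actin, read 13.21, 13.16, 13.20, 13.21 and 13.25. Vim, the intermediate filament of mesenchymal and blood cells, averaged 12.72, and Arpc1b, a subunit of the Arp2/3 complex of blood cells, read 12.20 and 12.21 in arrays 1 and 2 but 12.85, 12.91 and 12.89 in arrays 3 to 5. Actc1 of heart muscle at 6.98 and Fermt2, the kindlin of non-blood cells, at 6.41 were the lowest.

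Genes for handling lipid and iron were also found near the top. Among 29 lipid genes 17 were in the top range, led by Apoe, which carries cholesterol out of the cell. Apoe read 13.29, 13.19, 13.30, 13.24 and 13.16, and Gpnmb, a lysosomal glycoprotein, and Lipa, the acid lipase, averaged 13.01 and 12.45. Scd1, a fatty acid desaturase, and Ppara, a sensor of fatty acids in liver, were the lowest with 6.14 and 4.96. Fth1, the ferritin heavy chain that stores iron, read 13.33, 13.39, 13.17, 13.12 and 13.20, rank 2 of all genes. Of 25 iron genes 13 were in the top range and 5 at the floor, where Hamp, the liver hormone hepcidin, had the lowest level at 3.62. Over arrays 3 to 5 alone 10 of the 25 were in the top range, and over arrays 1 and 2 alone 16.

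The machinery for making protein was represented by 60 ribosomal protein genes, of which 45 were in the top range, 13 in the middle and 2 at the floor. Rpl9, Rpl10 and Rps6 were the highest at 13.03, 12.90 and 12.82, and the 2 at the floor, Rpl3l at 4.97 and Rpl39l at 4.44, are copies used in muscle and testis. Each level is that of the highest of the features of a gene. The lowest features of Rpl9, Rpl10 and Rps6 averaged 8.73, 7.18 and 7.49. Ribosomal genes have many near-identical copies in the genome, and 24 of the 84 listed had no feature with a single symbol here. Eef1a1, the elongation factor that brings tRNA to the ribosome, had the highest mean of all genes, with 13.40, 13.29, 13.29, 13.29 and 13.25, although Fth1, Psap and Ctsd were above it in array 2, Apoe in array 3 and Actb in array 5, while its brain and muscle paralog Eef1a2 averaged 7.02.

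Among the 30 highest genes, 23 belonged to a function list. The other 7 were Rn7sk at 13.19, a small nuclear RNA that restrains transcription elongation, Ly6e at 13.12, a surface protein induced by interferon, Serinc3 at 13.05, Lgals3bp at 13.04, a secreted glycoprotein, Saa3 at 12.83, an acute phase protein, Akr1a1 at 12.83, an aldehyde reductase, and Fxyd5 at 12.78. Saa3 read 13.11, 12.99, 12.81, 12.69 and 12.55.

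Genes of the type I interferon response had the highest median of the lists for activation, although no interferon had been added. Of 28 genes, 27 were in the top range and the last, Mx2, an antiviral GTPase, was in the middle at 8.85. The list had a median of 11.73 and a median percentile rank of 98.6, with 26 to 27 members in the top range over every subset of arrays tried. Ifitm3, which blocks virus entry, read 12.96, 12.89, 12.87, 12.81 and 12.87. Irf7, the factor that amplifies the response, read 12.49, 12.59, 12.56, 12.47 and 12.74, and Ifit2, a binder of viral RNA, read 12.53, 12.64, 12.37, 12.39 and 12.52. The 5 arrays differed little for these 3 genes, with the 2 sets of arrays overlapping for Irf7 but not for Ifitm3 and Ifit2. The receptor subunit gene Ifnar1 averaged 10.74 ± 0.01 (SD, n = 5), one of the smallest spreads in the top range, while Ifnb1, one of the ligands and chosen after its values were seen, read 6.06, 5.87, 5.35, 5.25 and 5.21 and was at the floor in its mean of 5.55.

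Promoters of 3 genes of the list and of Cxcl10, picked with their levels known, are shown because they share letters that the choice of the list did not use. RefSeq sequence of GRCm38.p6 from 250 bases before to 50 bases after the start site was searched on both strands for TTTCNNTTT, the core of the interferon response element, which was added after the levels had been seen. Of the 19 interferon list genes with a single promoter entry, 14 (73.7%) held it, against 1279 of 12976 genes overall (9.86%). The capitals mark these letters or their complement on the other strand, and the sequences run 5′ to 3′ on the strand of the gene. Ifit1, an RNA binder with a mean level of 11.84, lies on chr19:34640639-34640938 on the plus strand, and Rsad2, viperin, with 12.24, on chr12:26456403-26456702 on the minus strand. Ifitm3 is on chr7:141010695-141010994 and Cxcl10, a chemokine induced by interferon, on chr5:92348840-92349139, both on the minus strand.
Ifit1: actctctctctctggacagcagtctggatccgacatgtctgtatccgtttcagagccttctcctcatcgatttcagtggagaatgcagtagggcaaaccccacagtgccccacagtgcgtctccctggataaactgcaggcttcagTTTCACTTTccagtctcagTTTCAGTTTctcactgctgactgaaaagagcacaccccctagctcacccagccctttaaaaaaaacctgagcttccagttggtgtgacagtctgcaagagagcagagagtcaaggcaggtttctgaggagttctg
Rsad2: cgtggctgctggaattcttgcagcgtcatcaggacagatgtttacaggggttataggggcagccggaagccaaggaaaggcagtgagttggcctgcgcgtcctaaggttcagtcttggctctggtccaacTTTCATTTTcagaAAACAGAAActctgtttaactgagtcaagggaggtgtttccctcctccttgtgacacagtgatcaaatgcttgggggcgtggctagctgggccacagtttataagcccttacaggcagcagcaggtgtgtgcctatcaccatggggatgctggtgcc
Ifitm3: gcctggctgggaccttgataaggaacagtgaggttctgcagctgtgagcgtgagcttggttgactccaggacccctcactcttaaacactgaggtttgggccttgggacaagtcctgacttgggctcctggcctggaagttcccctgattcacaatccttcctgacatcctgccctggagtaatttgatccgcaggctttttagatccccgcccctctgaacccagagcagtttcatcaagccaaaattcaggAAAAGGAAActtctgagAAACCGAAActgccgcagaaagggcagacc
Cxcl10: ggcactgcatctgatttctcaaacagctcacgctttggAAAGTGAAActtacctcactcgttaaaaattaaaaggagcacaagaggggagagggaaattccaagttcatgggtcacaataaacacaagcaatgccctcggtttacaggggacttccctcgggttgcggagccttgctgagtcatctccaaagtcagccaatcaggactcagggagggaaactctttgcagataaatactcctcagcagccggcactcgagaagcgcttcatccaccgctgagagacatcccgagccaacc
Ifit1 held the letters 104 and 85 bases before the start, Rsad2 120 and 107 bases before it, Cxcl10 212 bases before it, and Ifitm3 3 and 20 bases after it. A match of letters does not show that a factor is bound there. Irf7, Oasl2, Cmpk2, Ifnar1 and Ifnar2 did not hold the letters in this window.

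M1 genes were found at every level. Of 19 genes, 4 were in the top range, 10 in the middle and 5 at the floor, with a median of 8.01. The shares of all genes were 10%, 56.2% and 33.8%. Ccl5, a chemokine for T cells and monocytes, read 12.85, 12.85, 12.87, 12.80 and 12.83. Acod1, the enzyme that makes itaconate, read 12.22, 12.17, 12.40, 12.41 and 12.40, and Cxcl10 read 11.96, 12.20, 12.36, 12.30 and 12.62. These 3 genes and Cfb, complement factor B, were the 4 in the top range.

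The cytokines themselves were lower. Tnf read 9.45, 9.86, 9.97, 9.96 and 10.22, in the upper part of the middle range, and Il1b averaged 9.28 ± 0.09 (SD, n = 5). Nos2, the inducible nitric oxide synthase, read 7.31, 7.60, 7.90, 7.89 and 8.20. Tnf, Il1b and Nos2 were picked after their values were seen, as textbook genes of the M1 state. Il23a was at the floor in each array with 5.13 to 5.43, and Il6 read 3.79, 3.63, 3.39, 3.52 and 3.49, below the median of the olfactory receptor genes.

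M2 and repair genes were spread in the same manner, with 7 of 23 in the top range, 11 in the middle and 5 at the floor and a median of 7.65. In both the M1 and the M2 list the share in the top range was above the 10% of all genes. Their shares at the floor were below the 33.8% of all genes. Igf1, a growth factor, read 11.30, 11.36, 11.84, 11.75 and 11.91. Tgfb1, a cytokine of repair, read 11.15, 11.16, 11.66, 11.59 and 11.80, and Folr2, a folate receptor, read 10.60, 11.16, 10.90, 10.91 and 11.35. Mrc1, the mannose receptor, chosen like the next gene as a textbook M2 marker with its values known, averaged 10.91 ± 0.04. Arg1, the arginase that competes with Nos2 for arginine, read 5.69, 5.51, 5.20, 5.55 and 5.18 and was called at the floor. Retnla, a secreted protein induced by interleukin 4, was far lower at 3.83, 3.73, 3.79, 3.70 and 3.77. Genes of both states were thus found in the top range and at the floor of the same cultures, and whether single cells held both was not measured.

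**Figure D3:**
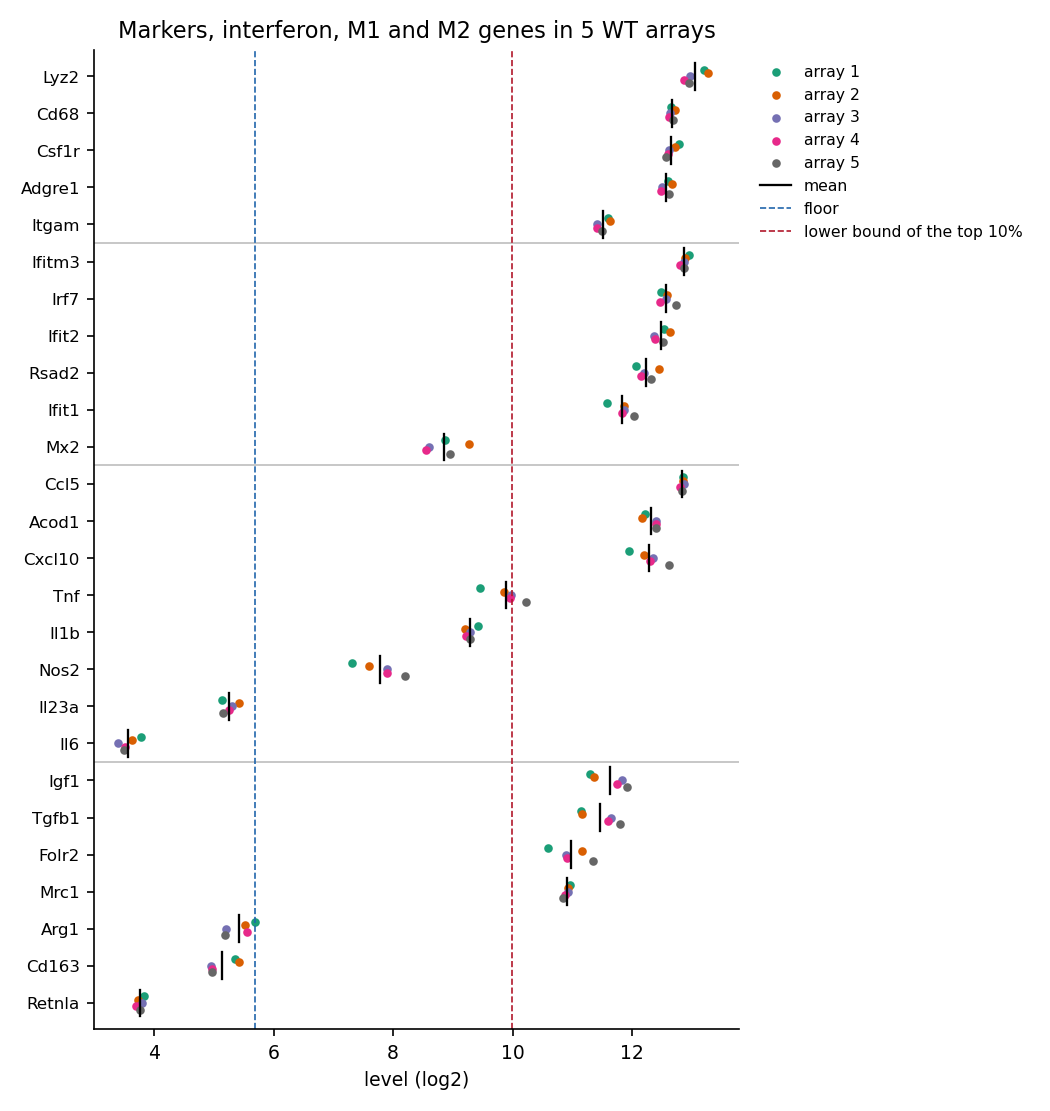
Level (log2, horizontal axis) of macrophage markers, interferon genes, M1 genes and M2 genes, from top to bottom, with a colored point for each of the 5 WT arrays and a black bar for the mean. All markers and all plotted interferon genes but Mx2 lie to the right of the red line at 9.98, while M1 and M2 genes lie on both sides of the blue line at 5.69.

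The promoters of a high M1 gene and a floor M2 gene are shown side by side. Acod1 lies on chr14:103046762-103047061 and Retnla on chr16:48842359-48842658, both on the plus strand. Capitals mark TATAAA on the gene strand in both, TTTCNNTTT on either strand in Acod1 and GAGGAAGT, a site of the PU.1 type, on either strand in Retnla.
Acod1: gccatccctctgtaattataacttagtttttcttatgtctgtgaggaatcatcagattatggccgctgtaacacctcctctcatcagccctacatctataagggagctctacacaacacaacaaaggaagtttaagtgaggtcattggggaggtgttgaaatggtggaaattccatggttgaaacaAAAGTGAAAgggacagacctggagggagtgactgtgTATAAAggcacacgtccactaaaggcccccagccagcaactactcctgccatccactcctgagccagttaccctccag
Retnla: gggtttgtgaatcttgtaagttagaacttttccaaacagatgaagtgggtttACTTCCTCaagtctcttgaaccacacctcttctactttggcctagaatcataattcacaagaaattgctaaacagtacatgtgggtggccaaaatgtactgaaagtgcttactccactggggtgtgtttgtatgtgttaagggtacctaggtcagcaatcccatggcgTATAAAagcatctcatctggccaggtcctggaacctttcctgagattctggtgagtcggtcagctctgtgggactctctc
In Acod1 TTTCNNTTT began 64 bases before the start. TATAAA stood 28 bases before the start of Acod1 and 30 bases before that of Retnla, so the letters at this place were alike in a gene at 12.32 and a gene at 3.76. The PU.1 type letters were 198 bases before the start of Retnla.

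Chemokines and their receptors ranged from the top to the floor, with 8 of 40 genes in the top range, 24 in the middle and 8 at the floor. The shares of all genes were 10%, 56.2% and 33.8%. After Ccl5, Ccl3 was the highest, a chemokine for monocytes, with 12.10, 12.37, 12.35, 12.27 and 12.49. Cxcl10 was the third. The lowest were the receptor genes Ccr4 of T cells at 4.71 and Cxcr5 of B cells at 4.52.

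Antigen presentation by MHC class I had a median of 11.13, with 12 of 15 genes in the top range and none at the floor. B2m, the light chain, read 13.02, 12.99, 12.63, 12.51 and 12.69, and Tapbp and Canx, which help to load and fold the heavy chain, averaged 12.07 and 11.97. Erap1, a peptidase that trims peptides, was the lowest at 9.46. For MHC class II and costimulation 6 of 15 genes were in the top range and 9 in the middle. Cd74, the invariant chain, read 11.32, 10.97, 11.98, 11.91 and 11.87, and the chains H2-Aa and H2-Ab1 averaged 11.31 and 11.18, against 6.38 for H2-Ob and 6.19 for H2-Eb2.

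Genes of the cell cycle were nearly all in the middle of the order. Of 32 genes for DNA replication and mitosis 31 were there, against 56.2% of all genes, with a median of 6.96 and a percentile rank of 55.2. Pcna, the clamp of DNA polymerase, was the exception at 11.76 ± 0.12 (SD, n = 5). Rrm1, a subunit of ribonucleotide reductase, and Aurkb, a mitotic kinase, followed at 8.84 and 8.82, and the kinetochore genes Cenpf and Cenpe were the lowest at 5.81 and 5.74, just over the floor. At the higher floor, set by 99% of receptor genes, 8 of the 32 were at the floor. Of all 19935 genes, 10233 lay above it.

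Metabolic lists had more members in the top range than the 10% of all genes. Glycolysis had 8 of 27 genes in the top range, 15 in the middle and 4 at the floor. Aldoa, aldolase A, read 12.59, 12.43, 12.33, 12.36 and 12.37, Hk1, hexokinase, averaged 12.38 and Ldha, which makes lactate, 12.21. The members at the floor included the testis isoforms Ldhc at 4.69 and Pgk2 at 3.99. The TCA cycle list also took in pyruvate entry and the cytosolic enzymes Idh1 and Mdh1, which are not part of the cycle in the mitochondrion. It had 10 of 23 genes in the top range and none at the floor. Idh1 averaged 11.88, and the cycle enzymes Sdha and Idh3b were both near 11.4. Pcx, the enzyme that turns pyruvate into oxaloacetate, was the lowest at 6.38. The respiratory chain had 27 of 44 genes in the top range, led by Atp5b at 12.11, a subunit of ATP synthase. Cox8b, the isoform of heart and muscle, at 5.55 and Cyct, cytochrome c of testis, at 3.87 were its only members at the floor. Redox defence had 15 of 27 genes in the top range, with the thioredoxin gene Txn1 at 12.66 and the peroxiredoxin gene Prdx1 at 12.06.

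Of 28 matrix genes 8 were in the top range, among them Thbs1 at 11.71, thrombospondin, Hpse at 11.61, heparanase, and Adam17 at 11.37, the protease that releases Tnf. Mmp10, Mmp7 and Mmp3 were at the floor with 5.51, 5.49 and 4.65. Of 26 growth and angiogenic factors 5 were in the top range, 15 in the middle and 6 at the floor. The shares of all genes were 10%, 56.2% and 33.8%. Igf1, Tgfb1 and Nrp1, a coreceptor for Vegf with 10.79, were the highest. Tek, a receptor of endothelial cells, and its ligand gene Angpt1 were the lowest at 5.00 and 4.05.

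The function list genes nearest to the middle of the order, at percentile ranks of 49.2 to 50.6, were of no single kind. They were Slc16a1, a lactate transporter, at 6.57, the ribosomal genes Rplp2 at 6.56 and Rpl12 at 6.55, the chemokines Cxcl1 at 6.52 and Ppbp at 6.51, the mitotic gene Cdc20 at 6.50, the matrix genes Col4a1 and Mmp25 at 6.49, the integrin chain Itgb3 at 6.48 and the sperm protamine Prm2 at 6.47. A level in the middle of the order was thus also read for a gene of sperm. Rplp2 and Rpl12 lay far under most of the ribosomal genes.

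The markers of tissues outside the blood lay mostly at the floor, and whether macrophages use any of them was not tested. Of 33 genes 21 were at the floor, 12 in the middle and none in the top range, with a median of 5.41. Alb, serum albumin, at 4.09 and Scgb1a1, a secreted protein of the airway, at 3.03 were the lowest. Mbp, myelin basic protein, was the highest at 7.52, 7.43, 8.01, 8.04 and 8.02, followed by Acta1 of skeletal muscle at 7.05 and Cela1 of the pancreas at 6.99. The middle range up to the level of Mbp therefore also held genes listed as markers of other tissues.

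Few markers of other blood and marrow cells were in the top range, which held 10% of all genes. None of 11 mast cell and basophil genes, 5 eosinophil genes, 6 NK cell genes, 4 erythroid genes or 6 progenitor genes was in the top range. These lists are too short to set that apart from 10%. In the same order 7, 3, 5, 2 and 1 of them were at the floor, against 33.8% of all genes. Hdc at 7.48, Siglecf at 7.00, Prf1 at 5.95, Slc4a1 at 6.24 and Myb at 6.28 were the highest of these lists. Of 6 T cell genes, only the coreceptor gene Cd4 was in the top range, at 9.54, 10.17, 10.18, 10.17 and 10.40, while Cd3e averaged 6.25. Of 7 B cell genes, the adaptor Blnk at 9.81 and the receptor chain Cd79b at 8.96 were the highest, and Pax5, the defining factor of the lineage, lay at 5.71. Of 8 dendritic cell genes only Bst2, which is also an interferon gene, was in the top range, at 12.14. The floor held 2 of the 6 T cell, 3 of the 7 B cell and 3 of the 8 dendritic cell genes.

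None of 10 stromal and 6 endothelial genes was in the top range, against 10% of all genes. The stromal list had 1 gene at the floor and a median of 6.89, above the 6.54 of all genes. The endothelial list had 2 genes at the floor and a median of 6.11, and 33.8% of all genes were at the floor. Acta2, smooth muscle actin, averaged 9.23, the collagen genes Col1a1, Col1a2 and Col3a1 averaged 7.82, 7.41 and 7.02, and Pecam1 and Vwf of endothelial cells 6.78 and 6.77. Of 8 osteoclast genes, with a median of 6.92, Mmp9, a gelatinase that neutrophils also store, was in the top range at 10.60. Acp5 at 9.04 and Ctsk at 7.38 were among the 4 in the middle, and Dcstamp at 5.62, Oscar at 5.40 and Calcr at 4.81 were at the floor. Pf4, platelet factor 4, was at 9.49, far above the other megakaryocyte and platelet genes Ppbp at 6.51, Itga2b at 6.37 and Gp9 at 6.05. Of 4 monocyte genes, Ccr2, the receptor for Ccl2, at 10.56 and Plac8 at 10.36 were in the top range, and Chil3 at 7.65 and Fn1, fibronectin, at 7.57 in the middle.

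Neutrophil genes were the least even of the 31 function and 15 cell type lists. The 12 genes had a median SD of 1.06 over the 5 arrays, against 0.16 for all genes. Ngp, a granule protein, read 11.00, 8.51, 11.73, 11.69 and 9.23 in arrays 1 to 5. Ltf, lactoferrin, read 10.19, 7.71, 9.71, 9.65 and 6.87, and S100a8, a calcium binder of neutrophils and monocytes, read 10.74, 8.43, 10.31, 10.30 and 7.45. Arrays 1, 3 and 4 were the high ones and arrays 2 and 5 the low ones. This order was chosen after these values were seen, so its presence in all 12 neutrophil genes is no test of it. It was read for 8.95% of all genes.

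The list median was 7.99, 6.37, 8.71, 8.69 and 6.62 in arrays 1 to 5, while the median of the 5 macrophage markers lay between 12.60 and 12.72. The same order, with arrays 2 and 5 lowest, was found for 25 of 83 genes of the other cell types, a higher share than the 8.95% of all genes. It held for 3 of 4 monocyte, 4 of 6 progenitor, 4 of 10 stromal, 4 of 11 mast cell and basophil, 2 of 4 platelet and 0 of 5 macrophage genes. Ccr2 read 11.06, 10.57, 10.62, 10.60 and 9.94, and Plac8 read 11.05, 10.12, 10.65, 10.57 and 9.41. Outside the cell type lists, 13 of 32 replication and mitosis genes and 11 of 28 matrix genes had this order. In a mixed culture more cells of a type and more RNA per cell cannot be told apart. Chil3, a gene of monocytes and of M2 macrophages, read 9.44, 7.00, 8.15, 7.74 and 5.92, and Mmp9 read 11.18, 9.50, 11.38, 11.36 and 9.61. Ctsg, the neutrophil granule protease of the cathepsin list, read 7.46, 6.25, 7.63, 7.64 and 6.28. All 3 were lowest in arrays 2 and 5 as well, and the part of neutrophil RNA in them was not tested. Over arrays 2 and 5 alone, 13176 genes were above the floor and 377 of the 781 function list genes were in the top range, against 13199 and 372 over all 5 arrays.

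**Figure D4:**
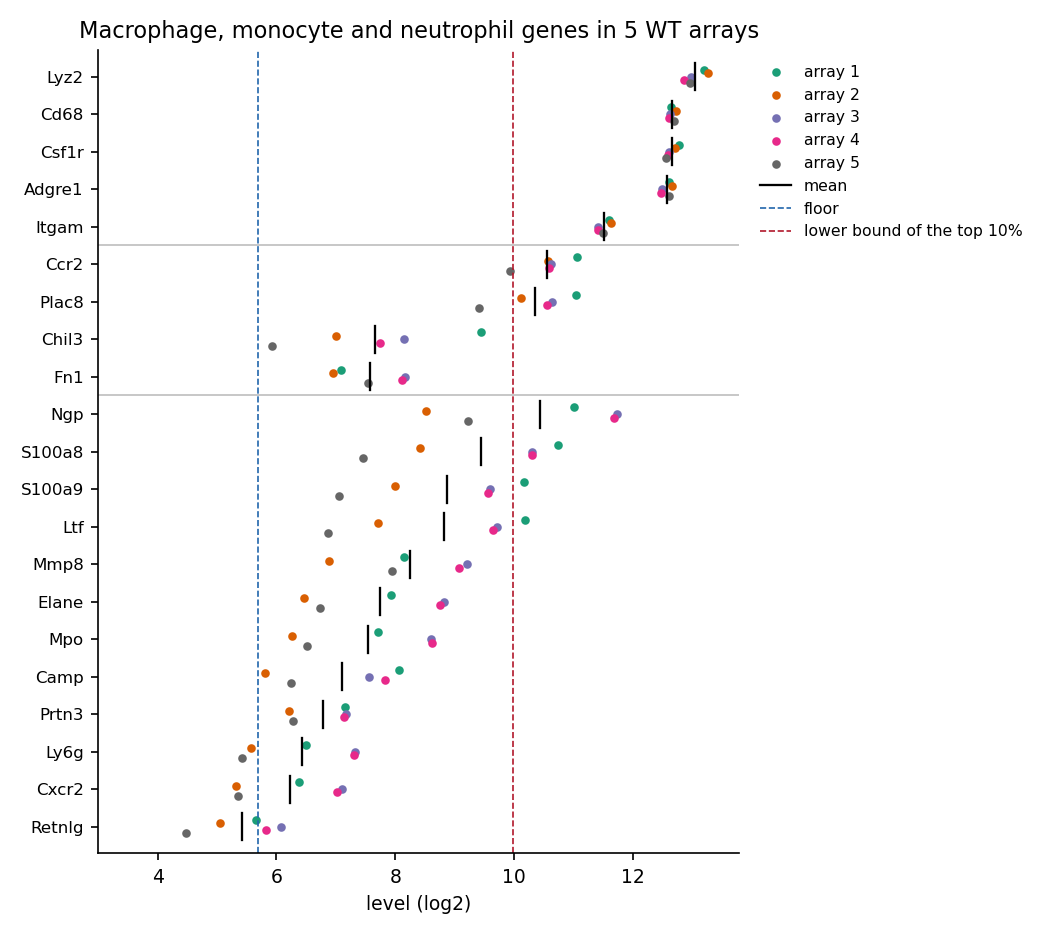
Level (log2, horizontal axis) of the 5 macrophage markers, 4 monocyte genes and 12 neutrophil genes, from top to bottom, with a colored point for each WT array and a black bar for the mean. The markers differ little between arrays, while every neutrophil gene is lower in arrays 2 and 5 than in arrays 1, 3 and 4.

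Apart from the neutrophil genes, the widest spreads followed the split between arrays 1 and 2 and arrays 3 to 5. The means of the 2 sets lay more than 1 log2 unit apart for 897 genes, 296 of them higher in arrays 1 and 2 and 601 higher in arrays 3 to 5, and 153 of the 897 were in the top range. Usp17ld, a deubiquitinase gene of a repeated family, read 11.54, 11.27, 6.09, 5.58 and 6.10. Micos10, a gene of the mitochondrial inner membrane, read 11.50, 11.38, 8.01, 7.97 and 7.91. Trp53inp2 went the other way, with 8.47, 8.23, 10.95, 10.92 and 11.04.

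The other genes with the largest SD above the floor were Ppp4r2, Gas5, Klf13, Uqcc2, Snord73b, Snord82, Ngp, Ltf and S100a8. Gas5, a non-coding RNA that carries small nucleolar RNAs, read 11.97, 11.90, 9.35, 9.49 and 9.25, and Klf13, a zinc finger factor, 7.57, 7.37, 10.03, 9.95 and 10.03. For Gas5 and Klf13 the mean over the 5 arrays lay between the sets and was read in none of the arrays. At the other end, Mdh2, malate dehydrogenase of the mitochondrion, read 11.15, 11.14, 11.14, 11.14 and 11.15, and Akr1a1, Dhrs3, Tram1, Ifnar1 and Stx2 were the next steadiest genes of the top range, with SDs of 0.02 or less.

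**Figure D5:**
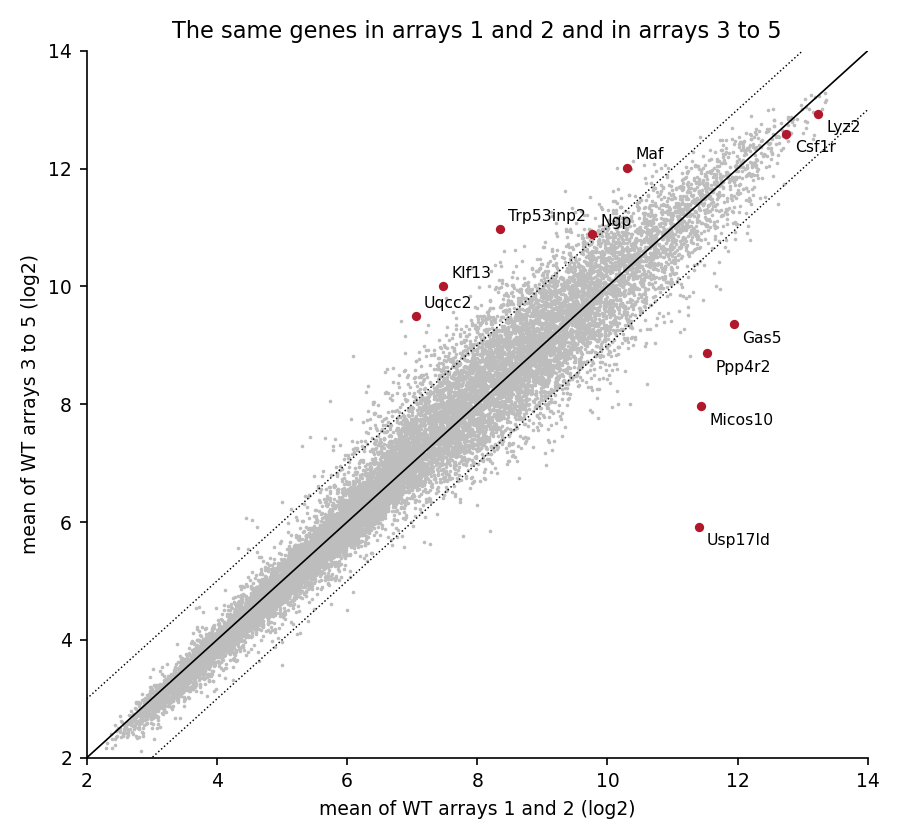
Mean level of each gene in WT arrays 3 to 5 (vertical axis, log2) against arrays 1 and 2 (horizontal axis, log2), with lines of equality and of a difference of 1 unit (dotted). Most of the 19935 genes lie between the dotted lines, and 897, among them Usp17ld and Trp53inp2, lie outside them.

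Promoter sequence differed between the ranges in letters and in base composition. Among 12976 genes with 1 promoter entry, GC content had a median of 61.0% for genes in the top range, 60.7% for the middle and 48.3% for the floor. TATAAA on the gene strand was held by 6.09% of top, 4.93% of middle and 15.0% of floor promoters, and by 8.52% of all. Olfactory and vomeronasal receptor genes, which make up part of the floor, held it in 22.8% of promoters at a median GC content of 35.3%. TGACGTCA, the cAMP response element, was present in 3.27% of top, 3.20% of middle and 1.03% of floor promoters. GATAAG was present in 5.18%, 5.11% and 9.64% in the same order. TTTCNNTTT was present in 12%, 7.23% and 13.4%, and in 24.2% of the receptor gene promoters. Promoters of the floor were poorer in G and C than the others, and the part of base composition in these shares was not tested.

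GAGGAAGT, the PU.1 type site on either strand, was held by 5.25% of top, 2.70% of middle and 2.05% of floor promoters, and by 2.74% of all. None of the 16 macrophage identity genes with a single entry held it in this window. Among the named genes of the top range that did were C1qc on chr4:136892865-136893164 on the minus strand and Ctss on chr3:95526536-95526835 on the plus strand. They are shown with GAGGAAGT, and in Ctss also TTTCNNTTT, in capitals on either strand.
C1qc: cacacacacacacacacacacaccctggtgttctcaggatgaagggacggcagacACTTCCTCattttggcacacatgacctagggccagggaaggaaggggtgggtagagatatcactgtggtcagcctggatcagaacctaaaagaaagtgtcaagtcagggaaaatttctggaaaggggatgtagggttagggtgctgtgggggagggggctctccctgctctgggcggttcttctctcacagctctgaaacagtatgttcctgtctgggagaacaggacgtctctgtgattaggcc
Ctss: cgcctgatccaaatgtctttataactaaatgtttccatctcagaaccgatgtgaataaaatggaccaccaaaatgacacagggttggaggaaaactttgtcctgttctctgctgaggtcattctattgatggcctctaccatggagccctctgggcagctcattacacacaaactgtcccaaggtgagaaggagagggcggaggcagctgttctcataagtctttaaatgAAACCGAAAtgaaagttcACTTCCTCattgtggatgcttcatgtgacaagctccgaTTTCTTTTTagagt
The letters began 195 bases before the start of C1qc and 2 bases before that of Ctss. Ctss, cathepsin S, which cuts the invariant chain for MHC class II, read 13.06, 13.28, 12.52, 12.52 and 12.70, and C1qc read 12.79, 12.76, 12.75, 12.69 and 12.79.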

How the data were processed

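RNA of MCSF grown WT BMDMs had been hybridized to 1-colour whole transcript arrays. The deposited values are log2 levels that the authors obtained by RMA (version not given in the sources used here), with the log base taken from their range. The methods also name a filter and ComBat. The deposited table held 34760 features, so the filter was not applied to it, and no source says whether ComBat was applied to these values. Values were used as deposited. Features with 1 symbol in the platform annotation (21640) were kept and symbols were updated through RefSeq gene identifiers, 1321 features with several symbols and 11799 unlisted ones were set aside, and of several features of a gene the one with the highest mean was taken.

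The mean and SD over the 5 WT arrays were computed with Python 3.11.15, pandas 2.3.3 and numpy 2.4.6, and figures were drawn with matplotlib 3.10.9. The code was run on simulated levels that were set apart in advance, which does not test the ranking of real features. No test between groups was made, and the number of arrays limits the precision of each mean. The members, lists and rules were chosen with earlier results of these data known. Named genes were the 5 markers, the 30 highest, the 3 highest and 2 lowest of each function list and any member alone or nearly alone on its side of the floor, the 12 largest and 6 smallest SDs, cell type markers above the floor or highest in their list, and the 10 list members nearest the 50th percentile. Others were chosen after their values were seen. Alternatives were other floors, the median, subsets of arrays, each array left out, the mean of features, quantile normalization and centring.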

Additional observations from a re-analysis of the deposited data

Results flagged for a closer look

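In each of the following, 1 array lay apart from the other 4 by more than 0.71 of the whole range. Array 1 gave 13.40 for Eef1a1 (others 13.25 to 13.29), 9.54 for Cd4 (10.17 to 10.40), 7.49 for Tal1 (7.27 to 7.33) and 6.26 for Ocstamp, a gene of osteoclast fusion (6.49 to 6.58). Array 2 gave 6.06 for Pcx (6.42 to 6.54). The median of the redox defence list was 10.28 in array 5 (10.47 to 10.54 in the others). These were 6 of 292 sets of 5 values examined (2.05%), and chance flags about 5%.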

How the results depend on the processing

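The order of genes rests on few arrays and on features of unequal brightness, so near neighbours in it cannot be ranked. The floor mattered most for counts at or above it, and the choice of arrays for the order of genes. With the floor at the level under which 99% or 90% of the olfactory and vomeronasal receptor genes lay, instead of 95%, the function list genes at the floor numbered 164 or 58 instead of 90, and the genes above the floor 10233 or 14957 instead of 13199. When a gene had to exceed the floor of each array, 12254 genes were above it. Leaving out each array in turn gave 13050 to 13244 genes above the floor, 369 to 377 function list genes in the top range (372 over all arrays) and 88 to 94 at the floor. No function list's count in the top range moved by over 1.5 times under any alternative run. In the cell type lists, Ngp left the top range with arrays 1 and 2 only, Cd4 did so too, and with arrays 2 and 5 only Ngp, Mmp9 and Plac8 left it and Blnk entered it. Without array 1, Gata6 and Gpx2 rose above the floor, which left the macrophage transcription factors and the redox list with 0 members there. Of 246 percentile ranks of named genes, 0 moved with the floor, 72 moved beyond their spread with arrays 1 and 2 only, 32 with arrays 3 to 5 only, 32 with arrays 2 and 5 only and 20 with the mean of a gene's features, where Gas5 moved most (by 29.1 points). Arrays 2 and 5 only, and arrays 3 and 4 counted as 1, were chosen after seeing the data and left 13176 and 13189 genes above the floor. No paired analysis was possible because only 1 group was described.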

Other observations

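The array also carried features named for miRNA genes or, in a few cases, their host genes, which read the transcript over the gene and not the mature miRNA. Of 300 such genes, 93 (31.0%) were above the floor, against 66.2% of all genes, and their median was 4.72. Mir692-1 was the only one in the top range, at 11.13. Mir142 and Mir155, miRNA genes known from macrophages and picked after their values were seen, lay apart. Others were not all read, as Mir223, Mir21a and Mir511 had no level here, and Mir146 was at the floor with 5.56. Mir142, of blood cells in general, read 8.06, 8.36, 8.90, 8.71 and 9.17 in arrays 1 to 5, and Mir155, which rises with inflammation, read 5.19, 5.07, 5.47, 5.46 and 5.42. Mir142 was in the middle range in all arrays and Mir155 below the floor in all. Their mature sequences in RefSeq of GRCm38.p6 are given with the seed, bases 2 to 8, in capitals, for chr11:87756867-87756887, chr11:87756903-87756925 and chr16:84714143-84714165, all on the plus strand.
mmu-miR-142a-5p: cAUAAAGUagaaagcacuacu
mmu-miR-142a-3p: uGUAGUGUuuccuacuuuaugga
mmu-miR-155-5p: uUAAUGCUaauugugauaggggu

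Mir15a and Mir16-1, neighbours on chromosome 14 whose 5p arms share a seed, averaged 7.82 in the middle range and 5.20 at the floor. The 2 sequences are printed for that shared seed and lie on the minus strand at chr14:61632075-61632096 and chr14:61631936-61631957.
mmu-miR-15a-5p: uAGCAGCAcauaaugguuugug
mmu-miR-16-5p: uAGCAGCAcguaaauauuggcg

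Features with no gene in the platform annotation used here numbered 11799. Of these, 5292 (44.9%) were above the floor, against 66.2% of all genes. Another count, of means in the top range, was 756, a smaller share than the 10% of all genes. These are single features, while a gene was read by the highest of its features, so the shares are not of like units.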
